A study of Xenopus tropicalis with 27 samples.

Results

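The genes described here are the DNA replication genes of the tadpole brain, a fixed list of 49 symbols that covers origin licensing, helicase activation, the replicative polymerases, the sliding clamp and its loader, nucleotide supply, chromatin copying and the E2F factors. They were taken as the rows of both count tables whose gene symbol equals a listed one. Of the 49, 47 were present and tested in both tables, among 16212 genes of the drug table and 16049 genes of the time course. The listed symbols mcm3 and dut are not analysed here. RNA came from Xenopus tropicalis brains, and each of the 9 groups had 3 libraries.

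The drug groups were stage 46 brains of animals kept from stage 30 onward in 10 µM β-estradiol, an estrogen, or in 5 µM cyclopamine, a plant alkaloid that blocks the Hedgehog signal transducer Smoothened. DMSO, the solvent, was the control, and 3 brains were combined for each of these libraries. The untreated groups were brains at stages 40, 42, 44, 45, 46 and 47. The untreated animals are labelled wild type. No strain, sex, age in days or clutch was given in the sources used here, nor how many brains went into an untreated library. P-values therefore reflect only how far these libraries differ from one another, a spread that can include technical variation.

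A cell copies its genome once per division. In G1 the origin recognition complex, Cdc6 and Cdt1 load the MCM helicase onto origins, and in S phase Cdc45 and the GINS complex turn it into a moving fork that primase and the polymerases follow. E2F factors switch many of these genes on at the G1 to S step, so in a developing brain their transcripts are known to mark dividing progenitors and to fade as cells leave the cycle.

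Levels are given as CPM, a gene's count relative to the library total, scaled with TMM factors within each table, and calls rest on edgeR's quasi-likelihood test at a threshold of 0.05 on p, adjusted by Benjamini-Hochberg across the whole table. A value after ± is the SE beside a log2 fold change and the SD beside a mean CPM. Libraries held 17.6 to 28.5 M counts in the drug table and 12.9 to 48.3 M in the time course. The lowest count of any member in any library was 20 in the drug table and 11 in the time course. The 12 neuronal markers summed to 5597 to 7523 CPM with estradiol, 5733 to 6880 CPM with cyclopamine and 7609 to 7805 CPM with DMSO. The label of brain was thus matched by its markers in every drug library. The sums of all estradiol and cyclopamine libraries lay below those of all DMSO libraries. The part of neurons in the differences of the replication genes between these groups was not tested. Libraries varied more within the drug groups, with a biological coefficient of variation of 0.227 for estradiol and 0.21 for cyclopamine, than within DMSO, where it was 0.0899. In bulk RNA, fewer cells of a type and less RNA per cell cannot be told apart.

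Over the untreated stages the replication genes stayed high until stage 44 or 45 and then fell steeply. Together the 47 members summed to between 2563 and 2694 CPM in the stage 40 libraries and between 2906 and 3182 CPM at stage 44. At stage 46 the sum was 1450 to 1784 CPM, and at stage 47 it was 510.6 to 523.2 CPM. The stage 47 libraries were thus the lowest of the 6 stages and those of stage 44 the highest, with no overlap between them and any other stage. Of the 47 members, 36 had their highest mean at stage 44, 7 at stage 40, 3 at stage 45 and 1 at stage 47, and 45 had their lowest mean at stage 47. The shares of all genes with their highest or lowest mean at these stages were not counted. In a joint test over the 6 stages all 47 differed, as did 88.4% of all genes tested, with adjusted p between 2.77e-19 and 0.0278.

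Stage 47 against stage 40 gave 45 members lower (40.8% of all genes were called lower), 1 higher (40% of all genes) and 1 with no call. Their median log2 fold change was -2.34, beside -0.01 over all genes tested. When each library of stage 40 or stage 47 was left out in turn, 44 of the 46 calls were kept throughout. The call of orc2 was lost without stage 40 replicate 1, and that of gins1 without stage 40 replicate 1 or 3 or stage 47 replicate 2 or 3, with RLE size factors, with DESeq2 and in the fit of only the 2 groups. Both were lost at a mean of at least 5 CPM. The markers of progenitors (13 of 14 measured, none at 0) moved the same way: their sum was 3017 to 3227 CPM at stage 47 and 6124 to 6883 CPM at stage 40. The 12 neuronal markers summed to 6390 to 6821 CPM at stage 47 and 9001 to 9487 CPM at stage 40, but singly they went both ways, 6 called higher and 5 lower. Melanocyte markers (8 of 8, none at 0) summed to 21.4 to 24.6 CPM at stage 47 and 109.7 to 163 CPM at stage 40. Red cell markers (8 of 12) summed to 492 to 699 CPM at stage 47 and 901 to 1648 CPM at stage 40, epidermal markers (3 of 12) to 112 to 131 CPM at stage 47 and 180.2 to 198 CPM at stage 40, and retina and lens markers (5 of 11) to 27.8 to 37.1 CPM at stage 47 and 65.8 to 86.5 CPM at stage 40. Muscle markers (8 of 11, 1 of them at 0 in stage 47 replicate 2) overlapped, at 16.3 to 37.8 CPM at stage 47 and 28.9 to 81.8 CPM at stage 40. Higher at stage 47 were the sums of leukocyte markers (7 of 10), at 44.3 to 47.4 CPM against 22.5 to 28.6 CPM at stage 40, and of endothelial markers (8 of 8), at 145 to 157 CPM against 124 to 131 CPM at stage 40. The part of any of these in the fall of the replication genes was not tested.

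**Figure D1:**
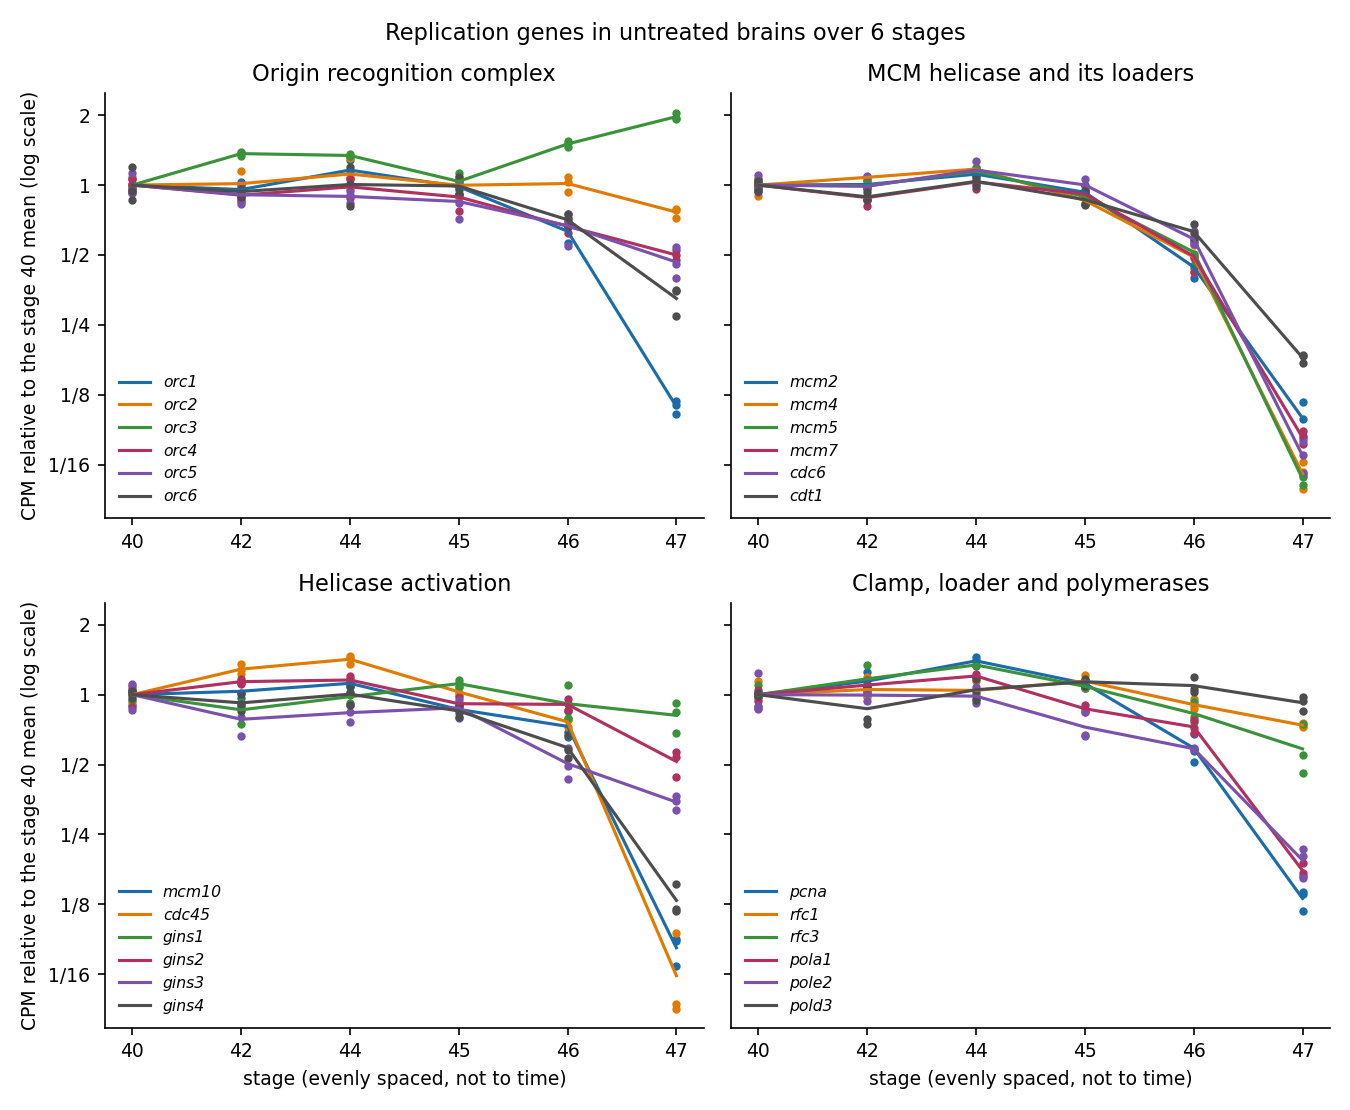
CPM of 24 replication genes in untreated brains, divided by each gene's stage 40 mean, on a log scale, at stages 40 to 47 (spaced evenly, not to time). Lines join the means of 3 libraries and points are single libraries. Most lines stay near 1 until stage 45 and drop at stage 47, whereas orc3 ends at 1.97 times its stage 40 level on the fitted scale and gins1 and pold3 stay near 1.

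Among the licensing genes the core of the MCM helicase fell together. The subunit mcm5 had 5.57, 6.12 and 6.03 CPM at stage 47 and 106, 115 and 105 CPM at stage 40. All of its stage 47 libraries lay far below every stage 40 library, with a log2 fold change of -4.20 ± 0.09 (SE, adjusted p = 1.83e-20). Of the other listed subunits, the changes were -4.13 ± 0.10 for mcm4, -3.61 ± 0.10 for mcm7 and -3.33 ± 0.10 for mcm2 on the same log2 scale. The helicase loaders followed, cdc6 by -3.86 ± 0.12 and cdt1 by -2.47 ± 0.09, while geminin (gmnn), which holds Cdt1 in check, changed by -1.60 ± 0.11. All of these passed the test.

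The origin recognition complex did not move as a unit. orc1, the largest subunit, whose level is known to change through the cycle in human cells, had 1.69, 1.56 and 1.76 CPM at stage 47 and 14.6, 16 and 14.5 CPM at stage 40. That is a log2 fold change of -3.16 ± 0.13 (adjusted p = 4.2e-16), with no overlap of the libraries. orc2, orc4, orc5 and orc6 also fell, with log2 fold changes of -0.38 ± 0.13, -1.0 ± 0.09, -1.10 ± 0.15 and -1.60 ± 0.16. orc3 was the 1 member that rose: it had 24, 25.2 and 23.6 CPM at stage 47 and 12.3, 12.5 and 12.2 CPM at stage 40. Each stage 47 library lay above each stage 40 library (log2 fold change 0.98 ± 0.08, adjusted p = 4.63e-11).

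The genes that turn a loaded helicase into a fork fell too. cdc45, the helicase cofactor, had 0.548, 0.571 and 1.16 CPM at stage 47 and 12.9, 12.5 and 11.5 CPM at stage 40, and mcm10, which helps to start the helicase, had 1.65, 1.61 and 1.25 CPM at stage 47 and 19.1, 19.6 and 16.8 CPM at stage 40. Both fell without overlap, by log2 fold changes of -3.99 ± 0.16 and -3.61 ± 0.14. The 4 subunits of the GINS ring covered a wide range. gins4 changed by -2.94 ± 0.11, gins3 by -1.52 ± 0.14, gins2 by -0.94 ± 0.11 and gins1 by -0.29 ± 0.13 (adjusted p = 0.0382 for gins1, which had 9.23, 6.85 and 8.44 CPM at stage 47 and 10.4, 9.54 and 10.1 CPM at stage 40).

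The primase and polymerase genes ranged from pola1 to pold3. pola1, the catalytic subunit of polymerase alpha, had 13.5, 14.8 and 13.1 CPM at stage 47 and 82.9, 80.2 and 74.3 CPM at stage 40 (log2 fold change -2.52 ± 0.07, adjusted p = 6.04e-19). pole2, of polymerase epsilon, changed by -2.36 ± 0.15, pold1, the catalytic subunit of polymerase delta, by -1.73 ± 0.08, and prim1, the catalytic subunit of primase, by -1.16 ± 0.09. pold3, an accessory subunit of polymerase delta, had 25.3, 24.3 and 22.1 CPM at stage 47 and 25.6, 25.9 and 26.3 CPM at stage 40. It was the only one of the 47 with no call (log2 fold change -0.12 ± 0.11, adjusted p = 0.315), although its stage 47 libraries all lay below its stage 40 libraries. The sliding clamp pcna had 32.4, 32.8 and 27.4 CPM at stage 47 and 237, 235 and 226 CPM at stage 40, a log2 fold change of -2.92 ± 0.09 (adjusted p = 2.9e-18). The clamp loader genes rfc1 to rfc5 ranged from -1.62 ± 0.10 (rfc2) to -0.45 ± 0.09 (rfc1), with rfc3 at -0.77 ± 0.13. rpa2, of the single-strand binding complex, changed by -2.34 ± 0.11.

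Among the 47 members, the steepest falls were in single genes of cohesion, chromatin assembly and nucleotide supply. esco2, which acetylates cohesin in S phase, had 2.15, 1.25 and 2.18 CPM at stage 47 and 50.8, 49.1 and 51.8 CPM at stage 40, the largest change of the 47 (log2 fold change -4.75 ± 0.15, adjusted p = 1.11e-17). Thymidylate synthase (tyms) had 1.46, 1.35 and 1.53 CPM at stage 47 and 39.5, 32.9 and 33 CPM at stage 40, and rrm2.2, by its symbol a copy of the small subunit of ribonucleotide reductase, had 6.76, 6.17 and 6.67 CPM at stage 47 and 172, 158 and 142 CPM at stage 40. Neither gene's groups overlapped, and the log2 fold changes were -4.59 ± 0.14 and -4.58 ± 0.11. rrm2.2 may share reads with tandem copies and is uncertain as a single gene. chaf1b, a subunit of the histone chaperone CAF-1, changed by -4.56 ± 0.12, against -2.50 ± 0.08 for chaf1a of the same complex. The large reductase subunit rrm1 changed by -2.86 ± 0.08, uhrf1, which reads DNA methylation behind the fork, by -2.71 ± 0.08, and atad2, a bromodomain ATPase, by -3.72 ± 0.10. The E2F factors e2f8, a repressor, and e2f1, an activator, changed by -4.11 ± 0.19 and -2.59 ± 0.14. The enzymes that join Okazaki fragments changed by -1.84 ± 0.10 (fen1, the flap endonuclease) and -1.71 ± 0.07 (lig1, the ligase).

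Most of the fall came late. Stage 42 against stage 40 gave 5 members higher (24.7% of all genes) and 6 lower (22.4% of all genes), with a member median near 0 on the log2 scale. The 5 were orc3, cdc45, pcna, rfc4 and lig1, and the 6 were gmnn, gins3, pola2, chaf1b, esco2 and e2f8. Without stage 42 replicate 3, 1 member was called lower, without stage 42 replicate 2 it was 2 and without stage 40 replicate 3 it was 3. Without stage 40 replicate 2, stage 40 replicate 3 or stage 42 replicate 2, 3 members were called higher. Calls over all genes in these fits are not given here.

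Stage 44 against stage 42 gave 3 members higher (1.43% of all genes) and 0 lower (0.891% of all genes). They were pold1, pole and chaf1b, by 0.34 ± 0.07, 0.27 ± 0.06 and 0.33 ± 0.09. The fold change was positive in 43 of the 47 members and in 8082 of all 16049 genes, with a median of 0.19 beside 0.001 over all genes. At an unadjusted p under 0.05 there were 24 members higher and 0 lower, beside 2801 of all genes in either direction. DESeq2 called 8 members higher and 0 lower, beside 365 higher and 232 lower of all genes, and leaving out 1 library gave between 0 (without stage 42 replicate 2) and 14 (without stage 42 replicate 1). Without stage 44 replicate 1 or replicate 2 the count was 1. Calls over all genes with a library left out are not given here.

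Stage 45 against stage 44 gave 21 members lower (11.2% of all genes) and 0 higher (11.6% of all genes, and 0 members higher at an unadjusted p under 0.05 or by DESeq2). The largest change was in rrm2.2, with 117, 114 and 116 CPM at stage 45 and 195, 208 and 189 CPM at stage 44 (log2 fold change -0.77 ± 0.09, adjusted p = 4.46e-06). Its 2 groups did not overlap.

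At stage 46 against stage 45, 37 members were lower (22.9% of all genes) and 1, orc3, was higher (19.2% of all genes). mcm2 had 62.3, 55 and 50 CPM at stage 46 and 124, 110.3 and 117 CPM at stage 45, and rpa2 had 27.3, 21.2 and 19.5 CPM at stage 46 and 47.5, 47.4 and 47.5 CPM at stage 45. Every stage 46 library of both genes lay below every stage 45 library, by log2 fold changes of -1.07 ± 0.08 and -1.07 ± 0.10, and the median of the 47 was -0.55.

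The last step was the largest. Stage 47 against stage 46 gave 44 members lower (25.8% of all genes), 1 higher, orc3 (23% of all genes), and 2 with no call, gins1 and pold3. The median log2 fold change was -1.60. By role, the median member of nucleotide supply stood at 4.16% of its stage 40 level at stage 47, that of the chromatin and cohesion genes at 7.57%, of the E2F factors at 11.1% and of origin licensing at 18%. For helicase activation the figure was 23.7%, for primase and polymerases 29.2%, for flap and nick processing 29.3%, and for the clamp, its loader and RPA 39.6%. At stage 46 these medians ran from 53.3% (nucleotide supply) to 74.8% (flap and nick processing), a narrower spread between roles than at stage 47. The differences between roles were not tested, and the median of nucleotide supply rests on 3 measured members. At stage 47 against stage 40, the 9 further nucleotide supply genes ranged widely. tk1, dctd, cmpk1 and mthfd1 changed by -4.065, -3.26, -2.58 and -1.79 on the log2 scale. shmt1, samhd1, dhfr, rrm2b and dtymk changed less, by -0.85, -0.85, -0.48, -0.44 and -0.025. The low level is thus not shown for nucleotide supply as a whole.

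**Figure D2:**
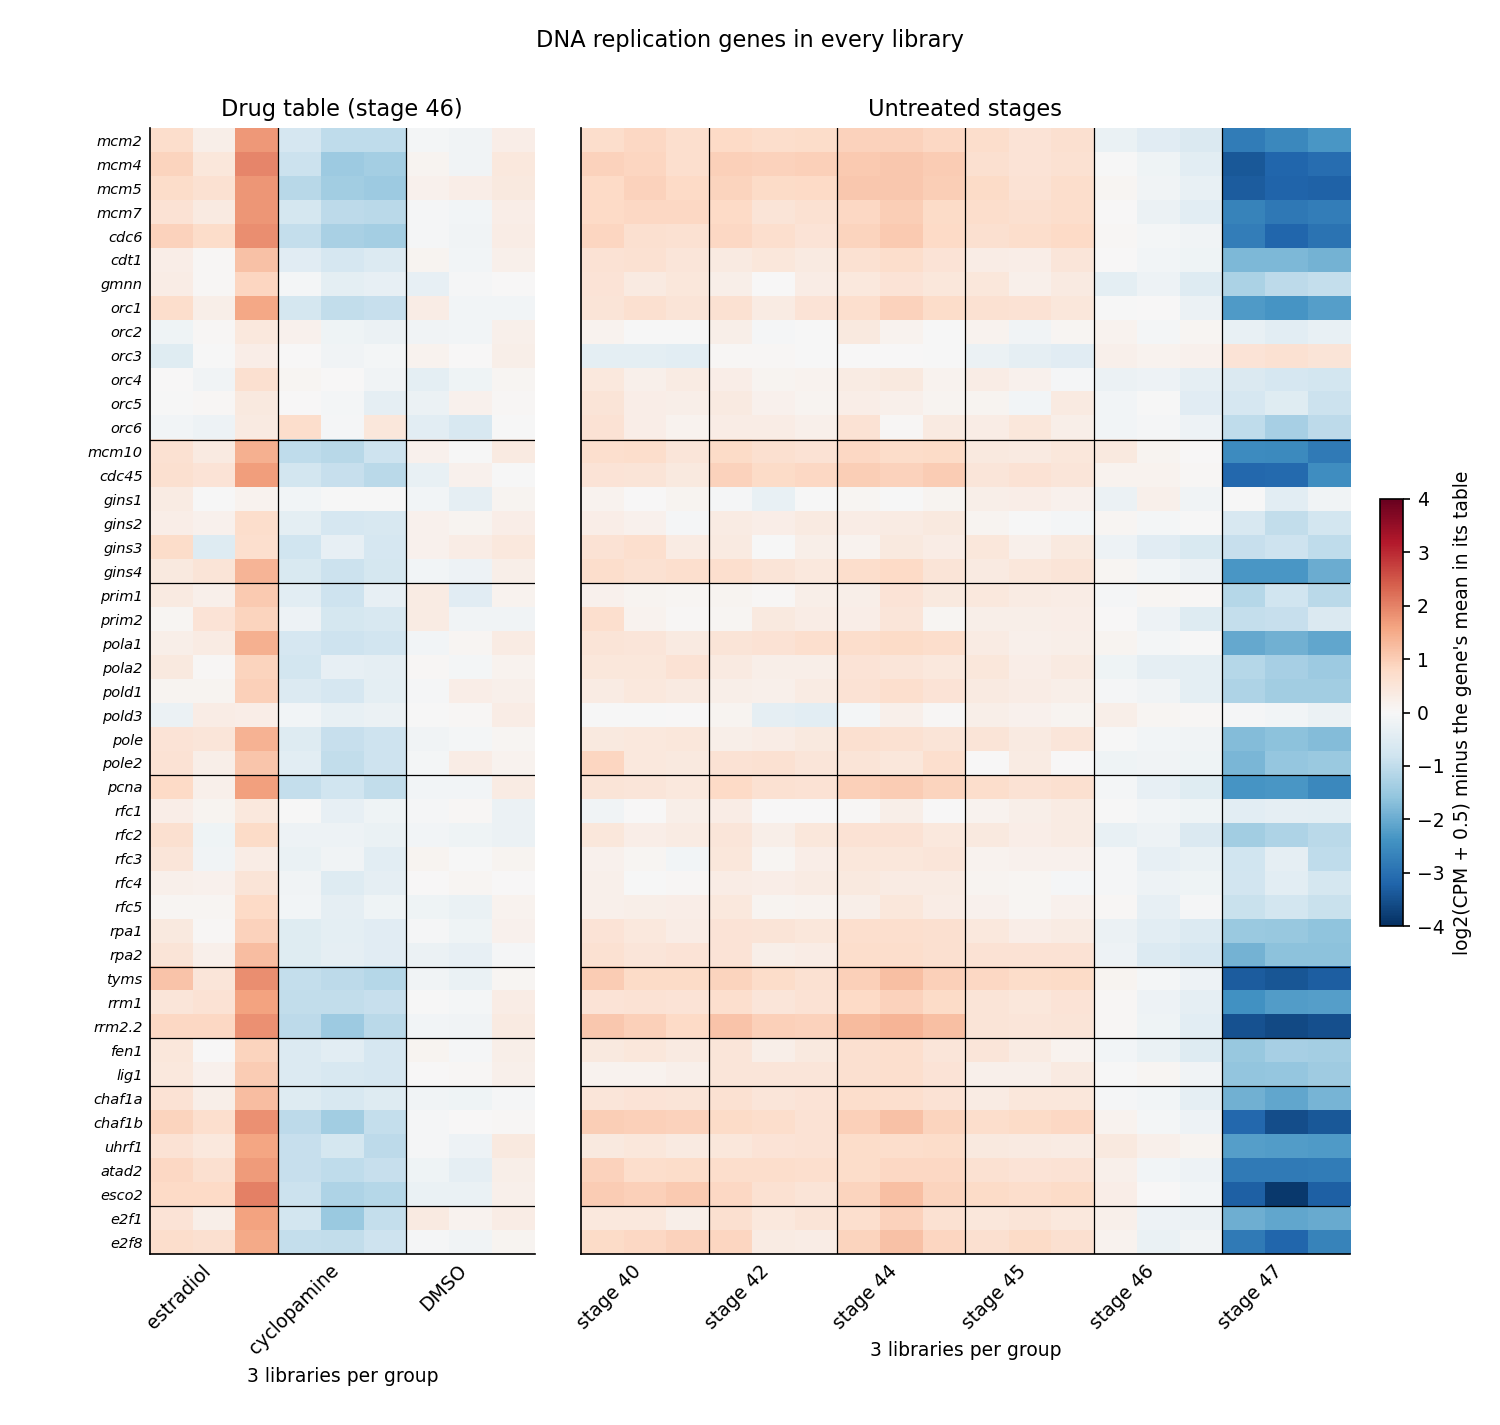
Heat map of log2(CPM + 0.5) of the 47 members (rows, grouped by role) in the 27 libraries (columns, 3 per group), each row centred on its own mean within its table. Red is above that mean and blue below. Stage 47 stands out in blue, and in the drug table estradiol replicate 3 in red and the cyclopamine libraries in blue. The rows of gins1, pold3 and rfc1 stay pale throughout the drug table.

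Set against cyclopamine, estradiol brains at stage 46 held more transcript of most replication genes. The doses differed, 10 µM estradiol and 5 µM cyclopamine, so the comparison is of these exposures and not of matched amounts. Of the 47 members 34 were higher with estradiol (4.16% of all genes) and 0 lower (2.6% of all genes, and 0 members lower at an unadjusted p under 0.05 or by DESeq2). All 3 estradiol libraries lay above all 3 cyclopamine libraries in 40 members (15.3% of all genes) and below them in 0 (9.34% of all genes). The median log2 fold change of the members was 1.24, beside 0.04 over all genes tested, and 13 members were at least 4-fold higher. The members summed to 1122, 980.4 and 1958 CPM with estradiol, to 564.7, 507.5 and 522.5 CPM with cyclopamine, and to 783, 762.7 and 915.6 CPM with DMSO.

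Estradiol replicate 3 stood apart, and it was the highest estradiol library for 43 members, at a median of 1.81 times the mean of the other 2. Without it, 31 members were called and the median log2 fold change was 0.94. Estradiol replicates 1 and 2 were by themselves both above all cyclopamine libraries in 40 members. The share of all genes with this order of 2 libraries against 3 was not counted. Without cyclopamine replicate 3 the count was 20, without cyclopamine replicate 1 or 2 it was 27, and a fit of only the 2 groups, without DMSO to share the estimate of the spread, called 18. Calls over all genes in the fits that left out a library or DMSO are not given here. The loss of calls is thus not shown to be particular to the members. The 20 members called in every fit that left out 1 estradiol or cyclopamine library were mcm4, mcm5, cdc6, orc1, mcm10, cdc45, gins4, pole, pcna, tyms, rrm1, rrm2.2, lig1, chaf1a, chaf1b, uhrf1, atad2, esco2, e2f1 and e2f8. Of these, pcna and e2f1 were not called under every other planned setting in which they were tested. At a mean of at least 5 CPM only 29 of the 34 were tested, and an untested member was not counted as lost. No single DMSO library was left out for this comparison. Over all genes, RLE size factors gave 473 higher and 516 lower calls in place of 675 and 422, while the members stayed at 34 higher and 0 lower.

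Markers of other tissues differed between the same libraries. Muscle markers (8 of 11 measured) summed to 21.4 to 40.8 CPM with estradiol, 74.1 to 136 CPM with cyclopamine and 8.55 to 12.5 CPM with DMSO. Melanocyte markers (8 of 8) summed to 27.8 to 61.3 CPM with estradiol, 45.6 to 127 CPM with cyclopamine and 23.3 to 23.7 CPM with DMSO, and endothelial markers (8 of 8) to 191 to 324 CPM with estradiol, 316 to 463 CPM with cyclopamine and 166 to 184 CPM with DMSO. Leukocyte markers (8 of 10) summed to 62.4 to 101 CPM with estradiol, 98 to 127 CPM with cyclopamine and 36 to 44.3 CPM with DMSO. Red cell markers (8 of 12) ran from 783 to 3095 CPM with estradiol, from 830 to 1289 CPM with cyclopamine and from 368 to 760 CPM with DMSO. No marker of these 5 lists was at 0 in a drug library. Epidermal markers (6 of 12, 1 of them at 0 in DMSO replicate 1) summed to 183 to 246 CPM with estradiol, 204 to 338 CPM with cyclopamine and 153 to 192 CPM with DMSO, and retina and lens markers (6 of 11, 1 of them at 0 in cyclopamine replicate 2) to 27.6 to 40.8 CPM with estradiol, 12.5 to 30.3 CPM with cyclopamine and 47.1 to 52.2 CPM with DMSO. Progenitor markers (13 of 14) summed to 4654, 4615 and 6632 CPM with estradiol, to 5158, 3858 and 4348 CPM with cyclopamine and to 3933, 3888 and 4762 CPM with DMSO. The progenitor sums of estradiol and cyclopamine overlapped, and 2 of the 13 were called higher with estradiol and 0 lower. The part of these tissues and cells in the differences of the replication genes between the drugs, or from DMSO, was not tested.

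**Figure D3:**
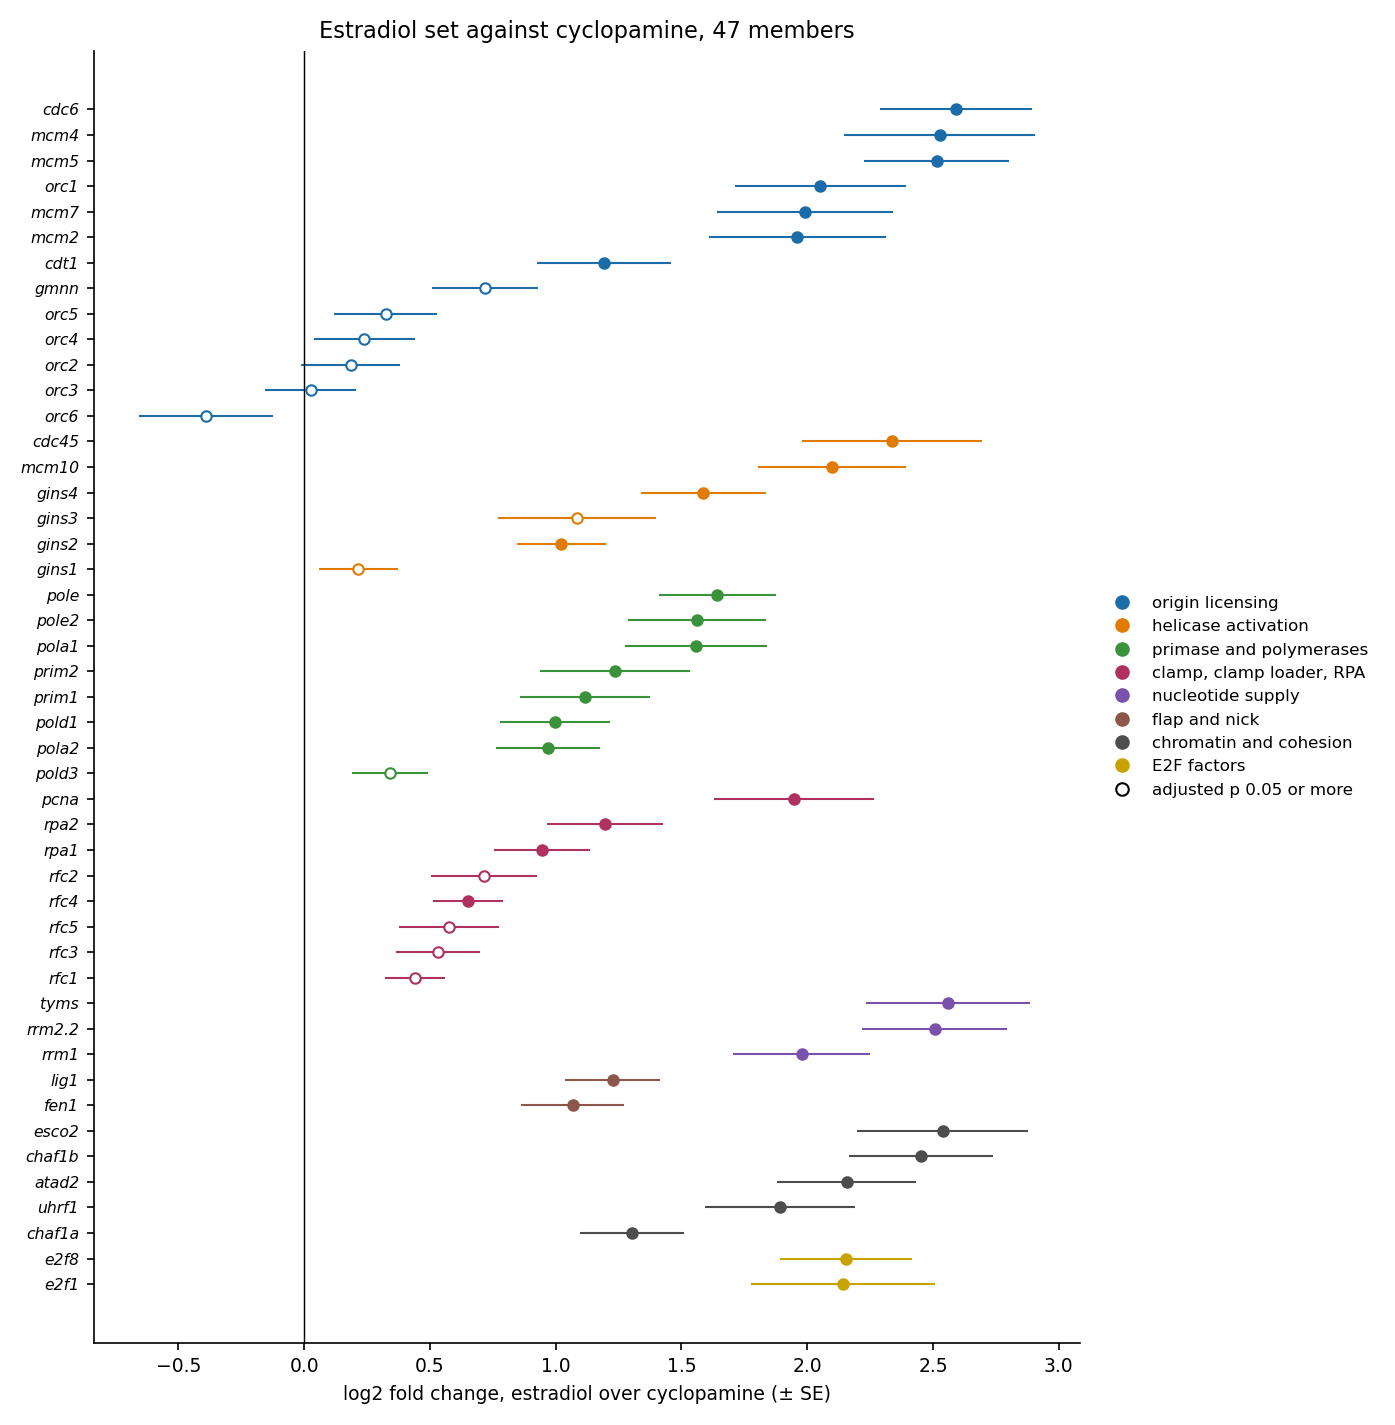
Log2 fold change of each of the 47 members, estradiol over cyclopamine, with its SE, ordered by size within each role. Filled points are the 34 members with adjusted p under 0.05 and open points the 13 others. cdc6 is the highest at 2.59 and orc6 the lowest at -0.39.

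In origin licensing the helicase loader and the MCM subunits led. cdc6 had 17.5, 15.2 and 33.9 CPM with estradiol, 4.35, 3.4 and 3.23 CPM with cyclopamine and 8.6, 8.11 and 11.1 CPM with DMSO. Estradiol over cyclopamine was the largest fold change of all members, 2.59 ± 0.30 on the log2 scale (adjusted p = 0.00188), with each estradiol library above each DMSO library and each DMSO library above each cyclopamine library. The same order held for mcm5, with 33.8, 30.5 and 69.2 CPM with estradiol, 9.02, 7.33 and 6.88 CPM with cyclopamine and 22.2, 23.9 and 26.2 CPM with DMSO (estradiol over cyclopamine 2.52 ± 0.29, adjusted p = 0.00188). mcm2 had 37.9, 27.2 and 78.8 CPM with estradiol, 14.5, 11.2 and 11.2 CPM with cyclopamine and 22, 21.2 and 28.1 CPM with DMSO. Its estradiol replicate 2 lay within the DMSO range, but all estradiol libraries exceeded all cyclopamine ones (1.96 ± 0.35, adjusted p = 0.0138). mcm4 and mcm7 differed by 2.53 ± 0.38 and 1.99 ± 0.35.

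The other factor that loads MCM, cdt1, passed as well. It had 12.3, 10.5 and 23.2 CPM with estradiol, 7.24, 6.1 and 6.69 CPM with cyclopamine and 11, 9.31 and 11.7 CPM with DMSO, a log2 fold change of 1.19 ± 0.26 for estradiol over cyclopamine (adjusted p = 0.026). Geminin (gmnn) had 13.1, 11 and 19.6 CPM with estradiol, 10, 7.97 and 8.45 CPM with cyclopamine and 8.4, 10.3 and 10.7 CPM with DMSO. Its estradiol and cyclopamine libraries did not overlap, but the difference missed the threshold (0.72 ± 0.21, adjusted p = 0.0699).

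Of the origin recognition complex, orc1 had 6.47, 4.54 and 11.9 CPM with estradiol, 2.1, 1.62 and 1.76 CPM with cyclopamine and 4.76, 3.43 and 3.46 CPM with DMSO (estradiol over cyclopamine 2.05 ± 0.34, adjusted p = 0.00695). None of orc2, orc3, orc4, orc5 and orc6 passed the test. orc3 averaged 11.4 ± 2.97 CPM with estradiol, 11.2 ± 0.643 CPM with cyclopamine and 13.1 ± 1.05 CPM with DMSO (SD), and orc2 averaged 9.15 ± 2.02, 8.03 ± 1.32 and 8.38 ± 1.18 CPM in estradiol, cyclopamine and DMSO brains. For both, the spread within a group was as large as the gap between groups. orc4 averaged 23.9 ± 7.37 CPM with estradiol, 20.2 ± 1.65 CPM with cyclopamine and 18.4 ± 3.05 CPM with DMSO, and orc5 averaged 5.38 ± 0.921, 4.29 ± 0.613 and 4.82 ± 0.756 CPM in estradiol, cyclopamine and DMSO brains, with overlap in both. orc6 was the 1 member with a negative value: it had 5.01, 4.68 and 7.24 CPM with estradiol and 9.22, 5.27 and 7.64 CPM with cyclopamine, overlapping (-0.39 ± 0.27, adjusted p = 0.435), with 3.94, 3.31 and 5.47 CPM in DMSO brains.

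Among the genes that activate the helicase, mcm10 had 6.76, 5.62 and 12.2 CPM with estradiol, 1.86, 1.67 and 2.18 CPM with cyclopamine and 4.87, 4.17 and 5.52 CPM with DMSO. cdc45 had 4.28, 3.95 and 9.27 CPM with estradiol, 1.34, 1.13 and 0.949 CPM with cyclopamine and 2, 2.97 and 2.56 CPM with DMSO. In both genes the 3 groups did not overlap, and estradiol over cyclopamine was 2.10 ± 0.30 for mcm10 (adjusted p = 0.00379) and 2.34 ± 0.36 for cdc45 (adjusted p = 0.00508). gins2 had 9.24, 8.77 and 12.7 CPM with estradiol, 5.7, 4.58 and 4.79 CPM with cyclopamine and 8.71, 8.4 and 9.38 CPM with DMSO. The cyclopamine libraries of gins2 were the low ones, and estradiol and DMSO overlapped (estradiol over cyclopamine 1.02 ± 0.18, adjusted p = 0.00912). gins4 differed by 1.59 ± 0.25. gins3 and gins1 did not pass: gins3 averaged 7.75 ± 3.33 CPM with estradiol and 3.64 ± 0.7 CPM with cyclopamine, with estradiol replicate 2 alone down among the cyclopamine libraries. gins1 averaged 11.5 ± 1.43 CPM with estradiol and 9.9 ± 0.348 CPM with cyclopamine.

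**Figure D4:**
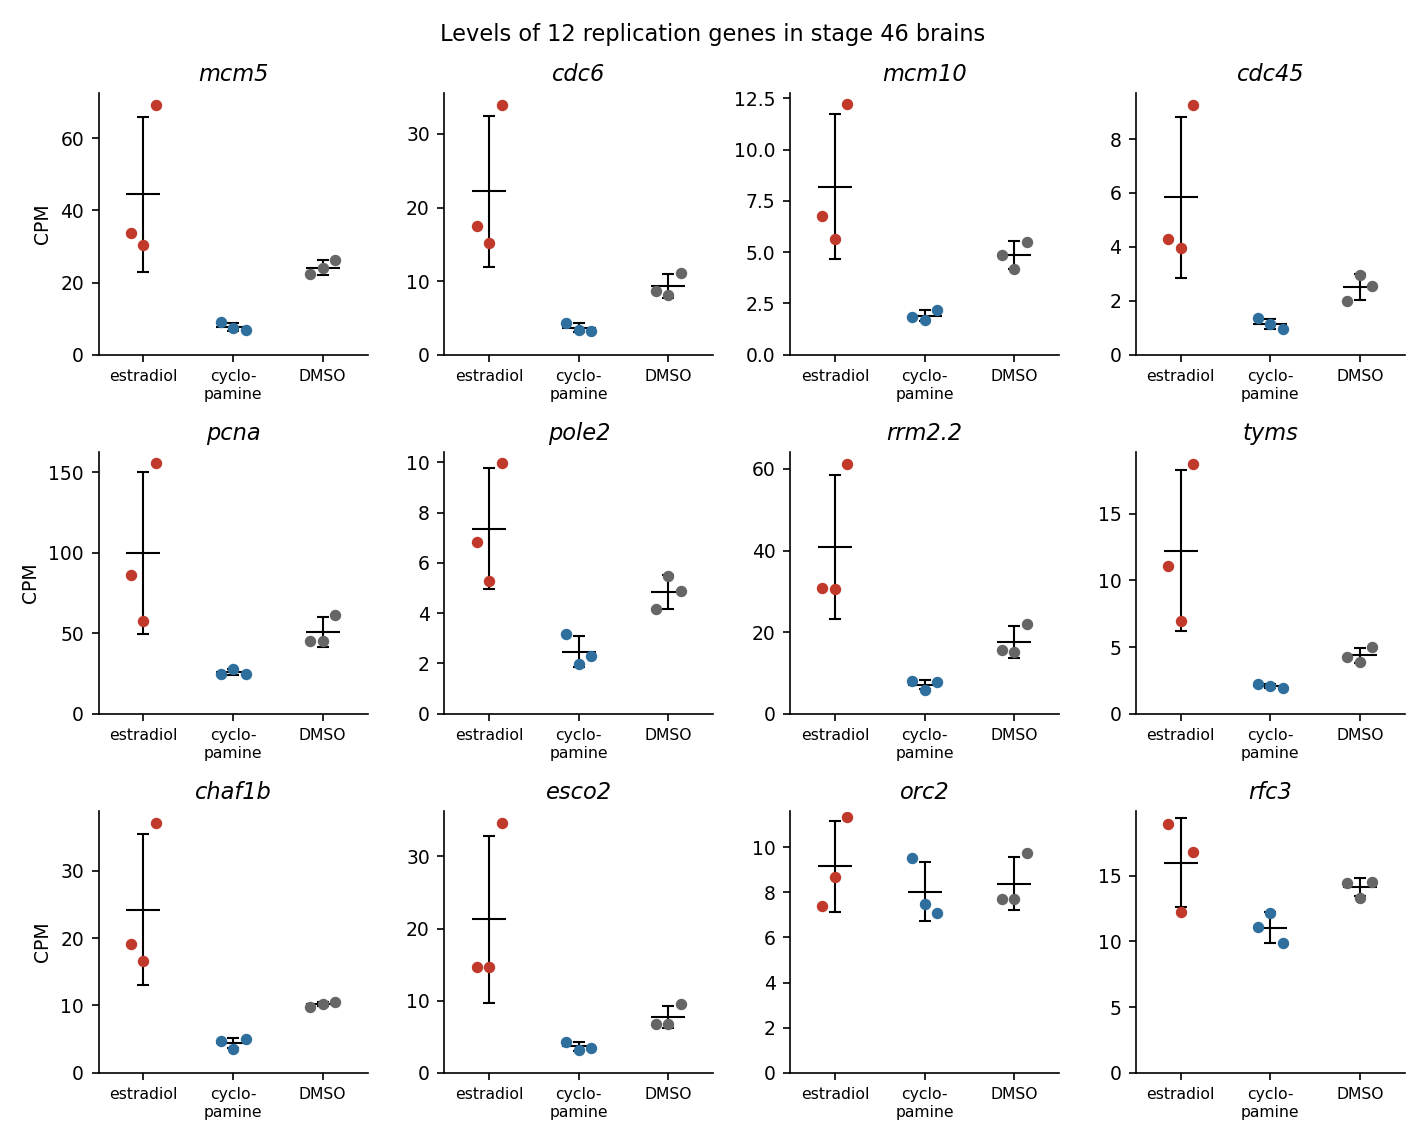
CPM of 12 replication genes in stage 46 brains with estradiol, cyclopamine or DMSO. Points are the 3 libraries of a group, the bar is their mean and the error bar the SD. For the first 10 genes all estradiol libraries lie above all cyclopamine libraries, estradiol replicate 3 highest. The groups of orc2 overlap. For rfc3 the lowest estradiol library barely clears the highest cyclopamine one and lies below DMSO, while the other estradiol libraries lie above both groups.

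Of the 8 primase and polymerase genes 7 passed. pola1 had 29.4, 31.5 and 67.2 CPM with estradiol, 15.3, 13.7 and 14.4 CPM with cyclopamine and 23, 26.1 and 31.3 CPM with DMSO (estradiol over cyclopamine 1.56 ± 0.28, adjusted p = 0.0121). pole2 had 6.81, 5.27 and 9.98 CPM with estradiol, 3.17, 1.97 and 2.28 CPM with cyclopamine and 4.15, 5.48 and 4.87 CPM with DMSO (1.56 ± 0.27, adjusted p = 0.00921). In both genes the cyclopamine libraries were the low ones and did not overlap with estradiol, while estradiol and DMSO overlapped. pold1 had 24.6, 24.5 and 44.5 CPM with estradiol, 15.6, 14.1 and 17.1 CPM with cyclopamine and 21.9, 27.6 and 26.2 CPM with DMSO (1.0 ± 0.22, adjusted p = 0.0252). Estradiol replicates 1 and 2 of pold1 sat within the DMSO range, above every cyclopamine library. prim1 had 26, 23.2 and 42.5 CPM with estradiol, 15, 11.3 and 15.9 CPM with cyclopamine and 25.4, 14.7 and 22.4 CPM with DMSO (1.12 ± 0.26, adjusted p = 0.0316). Here DMSO libraries spanned the gap between the drugs. pole, prim2 and pola2 also passed, at 1.64 ± 0.23, 1.24 ± 0.30 and 0.97 ± 0.21. pold3 did not, with a mean of 29.7 ± 5.81 CPM with estradiol and 23.4 ± 1.76 CPM with cyclopamine.

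Of the sliding clamp and its loader, pcna had 86.5, 57.4 and 156 CPM with estradiol, 24.9, 28.1 and 24.6 CPM with cyclopamine and 45.4, 45.2 and 61.6 CPM with DMSO. Its cyclopamine libraries were tight and low, and estradiol over cyclopamine was 1.95 ± 0.32 (adjusted p = 0.00966). rfc3 had 18.9, 12.3 and 16.8 CPM with estradiol, 11.1, 12.2 and 9.87 CPM with cyclopamine and 14.4, 13.3 and 14.6 CPM with DMSO. The lowest estradiol library of rfc3 lay just above the highest cyclopamine library, and the difference did not pass (0.53 ± 0.17, adjusted p = 0.0848). Of the loader only rfc4 passed, at 0.65 ± 0.14. rfc1, rfc2 and rfc5 did not, with estradiol means of 57.7 ± 6.39, 21.8 ± 7.04 and 31.5 ± 9.88 CPM against cyclopamine means of 42.5 ± 4.28, 13.3 ± 0.316 and 21.1 ± 1.77 CPM. rpa2 had 21.1, 17 and 35.1 CPM with estradiol, 10.2, 11.2 and 10.4 CPM with cyclopamine and 12.2, 11.5 and 14.1 CPM with DMSO. All estradiol libraries of rpa2 lay above the others, and DMSO just above cyclopamine (estradiol over cyclopamine 1.20 ± 0.23, adjusted p = 0.0145), and rpa1 differed by 0.95 ± 0.19.

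All 3 nucleotide supply genes passed. tyms had 11, 6.92 and 18.7 CPM with estradiol, 2.22, 2.07 and 1.9 CPM with cyclopamine and 4.25, 3.88 and 5.02 CPM with DMSO. The 3 groups were separate in the order estradiol, DMSO, cyclopamine, and estradiol over cyclopamine was 2.56 ± 0.33 (adjusted p = 0.00285). rrm2.2 had 30.7, 30.6 and 61.2 CPM with estradiol, 7.91, 5.86 and 7.73 CPM with cyclopamine and 15.6, 15.2 and 22 CPM with DMSO, in the same order (2.51 ± 0.29, adjusted p = 0.00188). rrm1 had 65.2, 70.3 and 144 CPM with estradiol, 23.1, 23.2 and 24.4 CPM with cyclopamine and 46.4, 43.6 and 56.7 CPM with DMSO (1.98 ± 0.27, adjusted p = 0.00392). Its cyclopamine libraries lay close together, while estradiol replicate 3 was far above the other estradiol libraries.

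For the enzymes that finish Okazaki fragments, lig1 had 36.7, 30.8 and 55.7 CPM with estradiol, 18.5, 17.2 and 16.9 CPM with cyclopamine and 27.5, 28.4 and 31.8 CPM with DMSO. fen1 had 21.6, 15.9 and 29.6 CPM with estradiol, 10.7, 11.5 and 9.77 CPM with cyclopamine and 16.9, 15.1 and 18.7 CPM with DMSO. In both genes cyclopamine was lowest without overlap and estradiol overlapped with DMSO, and estradiol over cyclopamine was 1.23 ± 0.19 for lig1 (adjusted p = 0.00515) and 1.07 ± 0.20 for fen1 (adjusted p = 0.014).

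All 5 chromatin and cohesion genes passed. chaf1b had 19.1, 16.6 and 37.1 CPM with estradiol, 4.67, 3.54 and 5.03 CPM with cyclopamine and 9.83, 10.2 and 10.4 CPM with DMSO, which were 3 separate groups (estradiol over cyclopamine 2.45 ± 0.29, adjusted p = 0.00188). Its partner in CAF-1, chaf1a, differed by 1.30 ± 0.21; the difference between the partners was not tested. esco2 had 14.6, 14.6 and 34.6 CPM with estradiol, 4.27, 3.2 and 3.46 CPM with cyclopamine and 6.81, 6.8 and 9.53 CPM with DMSO (2.54 ± 0.34, adjusted p = 0.00338). Again the 3 groups were separate, with estradiol replicate 3 far above the other estradiol libraries. atad2 had 27, 23.8 and 50.6 CPM with estradiol, 7.71, 7.24 and 7.73 CPM with cyclopamine and 13.4, 11.6 and 17.9 CPM with DMSO (2.16 ± 0.28, adjusted p = 0.00289). uhrf1 had 25.5, 23.2 and 51.8 CPM with estradiol, 8.7, 10.2 and 8.07 CPM with cyclopamine and 16.6, 14.6 and 22.3 CPM with DMSO (1.89 ± 0.30, adjusted p = 0.00609). Each estradiol library of both genes exceeded each DMSO library, which in turn exceeded each cyclopamine library.

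Both E2F factors passed. e2f8 had 7.73, 7.44 and 14 CPM with estradiol, 2.1, 2.07 and 2.37 CPM with cyclopamine and 4.4, 4.05 and 4.92 CPM with DMSO (estradiol over cyclopamine 2.15 ± 0.26, adjusted p = 0.00218), with no overlap of any groups. e2f1 had 8.17, 6.5 and 17.6 CPM with estradiol, 3.05, 1.62 and 2.56 CPM with cyclopamine and 7.12, 6.05 and 6.72 CPM with DMSO (2.14 ± 0.37, adjusted p = 0.00822). For e2f1 cyclopamine was low and estradiol replicate 2 lay within the DMSO range.

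The 2 drugs were also each set against DMSO, and both comparisons use the same DMSO libraries. With estradiol 5 members were higher than with DMSO (1.23% of all genes) and 0 lower (0.833% of all genes, and 0 members lower at an unadjusted p under 0.05 or by DESeq2). The 5 were tyms at 1.47 ± 0.31, esco2 at 1.46 ± 0.32, chaf1b at 1.25 ± 0.27, atad2 at 1.24 ± 0.27 and e2f8 at 1.12 ± 0.25 on the log2 scale, with adjusted p between 0.0418 and 0.0486. All 3 estradiol libraries lay above all 3 DMSO libraries in 21 members (13.8% of all genes) and below them in 0 (13.1% of all genes). The member median was 0.65, beside 0.01 over all genes. These calls depended on single libraries. Leaving out any 1 DMSO library gave 0 calls, leaving out estradiol replicate 1, 2 or 3 gave 1, 23 or 4, and without estradiol replicate 3 the member median was 0.35. DESeq2 called 20 members higher, limma on the deposited quantile-normalized values 0, and at an unadjusted p under 0.05 there were 29. The shares of all genes under these other rules are not given here.

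With cyclopamine 20 members were lower than with DMSO (9.59% of all genes) and 0 higher (9.97% of all genes). At an unadjusted p under 0.05 there was 1 member higher, orc6, and DESeq2 called 1 higher. All 3 cyclopamine libraries lay below all 3 DMSO libraries in 37 members (30.2% of all genes) and above them in 0 (19% of all genes), and the member median was -0.74, beside -0.08 over all genes. mcm5 fell by the most, with a log2 fold change of -1.64 ± 0.29 (adjusted p = 0.00464), then e2f1 (-1.45 ± 0.36, adjusted p = 0.0218), mcm4 (-1.42 ± 0.37), mcm10 (-1.35 ± 0.30) and cdc6 (-1.34 ± 0.30). Others of the 20 were rrm2.2 (-1.29 ± 0.28), chaf1b (-1.20 ± 0.28), tyms (-1.09 ± 0.33), orc1 (-1.08 ± 0.34), esco2 (-1.08 ± 0.34), rrm1 (-1.05 ± 0.27) and e2f8 (-1.03 ± 0.26). The remaining 8, uhrf1, pole2, atad2, gins2, lig1, pole, pold1 and fen1, lay between -0.99 ± 0.30 (uhrf1) and -0.66 ± 0.20 (fen1). pcna, whose libraries did not overlap between the groups, missed the threshold (-0.97 ± 0.31, adjusted p = 0.0589). The count was 11 with RLE size factors, under which the calls over all genes moved to 1763 higher and 862 lower, in place of 1616 and 1555. Leaving out 1 library gave between 3 (without cyclopamine replicate 3) and 8 (without cyclopamine replicate 1). Without cyclopamine replicate 2, DMSO replicate 1 or DMSO replicate 2 the count was 5, and without DMSO replicate 3 it was 4. mcm5, mcm10 and rrm2.2 were called in each of these. Calls over all genes in these fits, by DESeq2 and at an unadjusted p are not given here. The lower counts are thus not shown to be particular to the members.

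Of the 47 members, 43 had their means in the order estradiol, DMSO, cyclopamine from high to low. The share of all genes in this order was not counted. The drug groups, all at stage 46, can be set beside the untreated stages, with the limit that the tables were normalized separately and no level was tested across them. The DMSO mean lay below the stage 46 mean and above the stage 47 mean in 44 of the 47 members, at a median of 0.566 times the stage 46 mean and 1.64 times the stage 47 mean. The estradiol mean was a median of 0.861 times the untreated stage 46 mean and lay below it in 38 of the 47 members. The cyclopamine mean was a median of 1.10 times the stage 47 mean and lay above it in only 29 of the 47. None of these counts against the stages was taken over all genes. mcm5, as an example, averaged 44.5 ± 21.5 CPM with estradiol, 7.75 ± 1.13 CPM with cyclopamine and 24.1 ± 1.99 CPM with DMSO, and in untreated brains 56 ± 7.32 CPM at stage 46 and 5.91 ± 0.292 CPM at stage 47 (SD, 3 libraries each). For esco2 these means were 21.3 ± 11.6, 3.65 ± 0.56 and 7.71 ± 1.57 CPM in estradiol, cyclopamine and DMSO brains, and 26.2 ± 3.86 and 1.86 ± 0.53 CPM at stages 46 and 47. In both genes the estradiol mean was thus nearer in CPM to untreated stage 46, and the cyclopamine and DMSO means were nearer to stage 47. By ratio, the DMSO means of both genes were instead nearer to stage 46, and only the cyclopamine means were nearer to stage 47. Whether nearness to stage 47 was particular to cyclopamine in these examples thus depends on the scale. Both genes were among the members that fell most with age.

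The members with larger differences between the drugs tended to be those that fell more with age. Across the 47 members, the log2 fold change of estradiol over cyclopamine and that of stage 47 over stage 40 had a Pearson correlation of -0.92 and a Spearman correlation of -0.94. The 2 sets of libraries are different, but the points are genes measured in the same libraries, at the same depth, and are not independent replicates. All 25 members that fell by at least 2 log2 units from stage 40 to stage 47 were called higher with estradiol than with cyclopamine, against 9 of the other 22. Neither these counts nor the correlations were taken over all genes, so the link is not shown to be particular to these members. The 13 members with no call between the drugs had a median stage change of -1.0, and the 34 called ones of -2.78. gins1, pold3, orc2, orc3 and rfc1, which moved least with age or, for orc3, the other way, were among those 13. orc6 stood off the trend, since it had a log2 fold change of -1.60 ± 0.16 over the stages and had a negative value between the drugs.

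**Figure D5:**
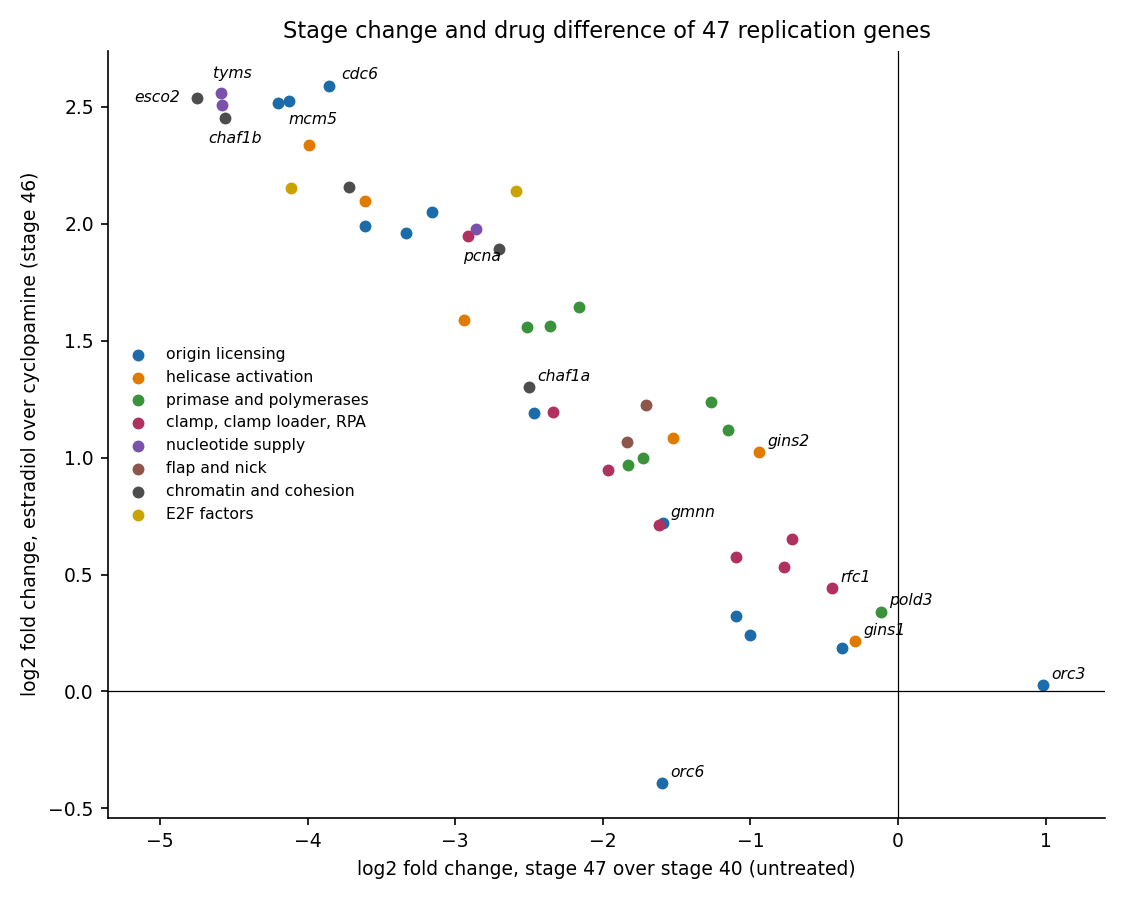
Log2 fold change of estradiol over cyclopamine at stage 46 (vertical) against that of stage 47 over stage 40 in untreated brains (horizontal) for the 47 members, coloured by role. Genes that fell most with age, such as esco2 at -4.75 and tyms at -4.59, are at the upper left, and orc3, at 0.98 with age, is at the lower right. orc6 lies below the others.

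Other genes of replication and of the steps around it, in lists drawn up with earlier results of these data known, had their calls between the drugs in the same direction. Of 30 further replication genes measured, 19 were higher with estradiol than with cyclopamine and 0 lower, with a median of 0.88. Among them were recql4, a helicase (2.38 ± 0.31), pclaf, a PCNA-associated factor (2.44 ± 0.32), donson (2.34 ± 0.32), a fork stability gene, and wdhd1, which ties polymerase alpha to the helicase (0.78 ± 0.11). Of 9 further nucleotide supply genes 3 were higher and 0 lower (median 0.48), which were tk1, thymidine kinase (2.44 ± 0.32), dctd, dCMP deaminase (1.87 ± 0.41), and mthfd1, of folate metabolism (0.97 ± 0.23). Of 26 genes of the G1 to S step 14 were higher and 0 lower (median 0.76), with e2f3 at 2.31 ± 0.29, mycn at 0.93 ± 0.12, e2f7, a repressor E2F, at 2.63 ± 0.38 and cdk2, the kinase of S-phase entry, at 2.13 ± 0.32. Against the 4.16% of all genes called higher and the all-gene median of 0.04, these lists are given as counts and medians, with no test of the lists.

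Of 11 genes that copy chromatin and DNA methylation 7 were higher and 0 lower (median 0.69), and the 4 with the lowest p were cdca7 (3.05 ± 0.42), hells (2.0 ± 0.31), slbp (0.82 ± 0.14) and the maintenance methyltransferase dnmt1 (0.69 ± 0.13). Of 16 genes of the S-phase checkpoint and of repair at forks 9 were higher and 0 lower (median 1.03), and among those with the lowest p were exo1 (2.43 ± 0.34), msh6 (1.99 ± 0.30) and fancd2 (1.13 ± 0.20). Mitosis and spindle genes, which act after replication in the same cycle, differed in the same direction, 22 of 23 higher and 0 lower with a median of 1.97. cenpe (2.16 ± 0.28), cdca8 (2.23 ± 0.30), aurkb (2.23 ± 0.31) and incenp (2.02 ± 0.28) had the lowest p in that list. In estradiol against DMSO none of these 6 lists had a call by edgeR. DESeq2 called 6, 1, 3, 2, 5 and 13 of them higher and 0 lower, in the order above, and at an unadjusted p under 0.05 the counts in either direction were 19, 3, 12, 4, 9 and 22. The shares of all genes by DESeq2 and at an unadjusted p are not given here, so these counts have no background beside them. In cyclopamine against DMSO, where 9.59% of all genes were called lower, the counts called lower were 9, 1, 7, 6, 3 and 10, and the 1 of 9 nucleotide supply genes is near that share. In stage 47 against stage 40, where 40.8% of all genes were called lower, the counts were 29, 8, 22, 10, 11 and 23.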

How the data were processed

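RNA from brains was sequenced after polyA selection with a stranded, low-yield library kit, per the labels' protocols, and STAR 2.7.3 is named in the submitters' processing notes. Which counter, strand setting, genome build and annotation were used is not given in the sources used here. The authors deposited raw counts per gene for 2 tables, and quantile-normalized values. The latter were read as already on a log2(CPM + 1) scale and served unchanged in an alternative. Counts were analysed with edgeR 4.0.16 in R 4.3.3: TMM scaling, a filter on low counts that removed 0 genes, and the quasi-likelihood test, in 1 fit over the 9 drug libraries and 1 over the 18 untreated libraries. P-values were adjusted over all genes of a table.

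Alternatives were RLE size factors, DESeq2 1.42.0, a mean of at least 5 CPM, limma 3.58.1 on the deposited log2 values, a replicate block, fits of 2 groups and leaving out each library. A library was left out only for the comparisons between 2 groups that hold its group. The scripts were tested on simulated data.

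The members and lists were chosen with earlier results of these data known. Values in every library were given for 27 representatives measured among a list of 28, and for a few others, which include those at an extreme. The rest are given by mean, SD or fold change. Pathway genes were named as the 4 called with the lowest p, or fewer, and 1 of these is not reported here. The symbols were taken from the tables, in which 3183 drug genes and 3135 time course genes carry none.

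A total of 3 counts corresponds to 0.105 to 0.171 CPM in the drug table and 0.0649 to 0.231 CPM in the time course. This floor covers counting error only. No promoter or protein sequence was used here.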

Additional observations from a re-analysis of the deposited data

How the results depend on the processing

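Counts of members called moved as follows. Calls over all genes under these settings are not given here, apart from those stated above, so the moves are not shown to be particular to the members. Estradiol over cyclopamine (34 higher) gave 18 in the fit of only the 2 groups and 20 to 38 when 1 library was left out. Estradiol over DMSO (5 higher) gave 3 with RLE size factors, 20 with DESeq2, 0 with limma, 9 with the replicate block, 0 in the fit of 2 groups and 0 to 23 with 1 library left out. Cyclopamine over DMSO (20 lower) gave 11 with RLE size factors and 31 in the fit of 2 groups. It gave 3 to 8 with 1 library left out, and 9 at a mean of at least 5 CPM, where 17 of the 20 were tested. Its count higher (0) was 1 with DESeq2, the replicate block and the fit of 2 groups, and 0 to 1 with 1 library left out. Stage 42 over stage 40 gave 3 to 6 higher and 1 to 9 lower with 1 library left out, and 3 lower in the fit of 2 groups. Its member median (-0.01) turned to 0.03 at a mean of at least 5 CPM, and to 0.0017, 0.023 and 0.0047 without stage 40 replicate 1, stage 42 replicate 2 or stage 42 replicate 3. Stage 44 over stage 42 (3 higher) gave 8 with DESeq2, 6 at a mean of at least 5 CPM, 5 with the replicate block, 0 in the fit of 2 groups and 0 to 14 with 1 library left out. The cause of these moves was not tested. The other stage comparisons stayed within 1.5 times of their counts. Under the replicate block, estradiol over cyclopamine gave 33 and cyclopamine over DMSO 22 lower. Deviations of same-numbered libraries from their group means correlated at -0.31 to 0.21 in the drug table and -0.20 to 0.12 in the time course. For differently numbered libraries the ranges were -0.39 to 0.51 and -0.17 to 0.23. Same-numbered libraries were thus not seen to be more alike, but groups of 3 cannot exclude a shared clutch or batch.

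Settings chosen after seeing the data kept cyclopamine replicate 1 alone in its group, which assumes that it varies like the other groups. Estradiol over cyclopamine then gave 4 members higher and cyclopamine over DMSO 0 lower. With estradiol replicates 1 and 2 against cyclopamine replicate 1, 23 were higher. Among the fold changes of single members tracked in the 3 drug comparisons and stage 47 over stage 40, the direction turned in 2: pold1 in estradiol over DMSO (0.30) was -0.0078 without estradiol replicate 3 and up to 0.45 without replicate 2, and gmnn in cyclopamine over DMSO was 0.12 with cyclopamine replicate 1 alone. Of the 23 pathway genes that the naming rule gives, 19 to 23 stayed called with 1 library left out and 0 with cyclopamine replicate 1 alone.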

Other observations

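Some pathway genes went the other way over the stages, and they are named here after their values were seen. At stage 47 against stage 40, rbl2, a pocket protein that represses E2F targets, was higher by 1.10 on the log2 scale (edgeR adjusted p = 3.2e-15), and cdkn1c, an inhibitor of cyclin-dependent kinases, by 0.89 (edgeR adjusted p = 7.64e-05). In this comparison 40% of all genes were called higher. Of the same list, rbl1 and rb1 changed by -1.69 and -0.69, and cdkn1a by -0.004 (edgeR adjusted p = 0.983). From stage 46 to stage 47, the largest step of the fall, cdkn1c changed by -0.14 (edgeR adjusted p = 0.534). The histone chaperone asf1a was higher by 1.76, and the checkpoint genes hus1, atrip and rad9a by 1.14, 0.57 and 0.43. The mean of asf1a was low, 0.66 CPM at stage 40 and 2.27 CPM at stage 47, and asf1b of its list changed by -0.83. Of the 16 checkpoint genes, DESeq2 called 3 higher and 11 lower in this comparison of stage 47 with stage 40. From stage 46 to stage 47, asf1a, hus1, atrip and rad9a changed by 0.38, 0.66, 0.37 and -0.31. The part of these genes in the fall of the replication genes was not tested.

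In drug-treated brains cdkn1a, another inhibitor of cyclin-dependent kinases, was higher with cyclopamine than with DMSO by 0.85 on the log2 scale (edgeR adjusted p = 0.0329). With estradiol over DMSO its value was 0.79 (edgeR adjusted p = 0.101), and with estradiol over cyclopamine -0.057 (edgeR adjusted p = 0.917), so the rise is not shown to be particular to cyclopamine. Of 23 mitosis genes, cenpa, which marks the centromere, was the 1 not called between estradiol and cyclopamine (0.25 ± 0.20, SE, edgeR adjusted p = 0.502).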
